A study of Mus musculus with 48 samples.

Results

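The 31 genes described here are marker genes of astrocytes, the star-shaped glial cells of the brain. They were taken by symbol from a gene-level count table of 47069 mouse genes, and where several identifiers carried 1 symbol, the identifier with the most counts was used. RNA had been sequenced from the cerebellum, striatum and cortex of 16 mice of the strain labelled C57BL/6N:129Sv, each mouse giving 1 library per region and 48 libraries in all. In 8 mice the 7qF3 segment, the mouse counterpart of the human 16p11.2 interval, was deleted, and the other 8 were wild-type controls. The 6 groups of 8 libraries, each from 4 males and 4 females, were therefore deletion and wild-type cerebellum, deletion and wild-type striatum, and deletion and wild-type cortex. The labels give no age, and do not say whether the deletion was carried on 1 or both chromosomes. All animals of 1 sex carried the same date in the age field and the other sex a second date, so sex and that date cannot be told apart.

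Astrocytes buffer potassium and water, take up and convert glutamate, couple to one another through gap junctions, supply neurons with lipids and other nutrients, and secrete proteins that act on synapses and vessels. They arise from radial glia, share several genes with them, and differ between brain regions. The cerebellum holds a specialised form, the Bergmann glia, whose processes run along Purkinje cell dendrites. The 31 genes fall into 2 of cytoskeleton and calcium binding, 11 channels, transporters and junction proteins, 4 metabolic enzymes, 4 receptors, 7 secreted proteins, and 3 genes of transcription and of progenitors. None lies in the deleted segment. Htra1 is the nearest on chromosome 7, at 4.05 Mb from Taok2, a gene of that segment, and Mfge8, Slc7a10 and Apoe lie 47.7, 91.7 and 107 Mb from it.

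Of the 31 genes, 26 had at least 1 promoter in the RefSeq table for GRCm38.p6. The 250 bases before the start site are shown for the 4 genes with the widest regional differences, Agt, Hopx, S100b and Lcat, and for Mfge8, the gene with the widest difference in the opposite direction. They are printed 5′ to 3′ along the strand of the gene. Capitals mark 3 motifs searched on both strands. These were TTGGC, the core of the site bound by nuclear factor I proteins, ACAAT, the core bound by SOX proteins, and TTCNNNGAA, the site bound by STAT proteins.
Agt: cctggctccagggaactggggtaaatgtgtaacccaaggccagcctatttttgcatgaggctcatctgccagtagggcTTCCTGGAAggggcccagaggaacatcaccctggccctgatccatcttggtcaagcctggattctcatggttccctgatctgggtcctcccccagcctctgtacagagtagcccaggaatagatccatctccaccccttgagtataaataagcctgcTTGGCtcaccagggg
Hopx: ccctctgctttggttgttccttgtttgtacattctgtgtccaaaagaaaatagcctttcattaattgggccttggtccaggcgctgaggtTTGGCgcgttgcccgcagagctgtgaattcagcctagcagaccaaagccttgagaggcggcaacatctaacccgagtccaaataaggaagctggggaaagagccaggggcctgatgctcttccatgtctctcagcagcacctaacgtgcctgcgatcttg
S100b: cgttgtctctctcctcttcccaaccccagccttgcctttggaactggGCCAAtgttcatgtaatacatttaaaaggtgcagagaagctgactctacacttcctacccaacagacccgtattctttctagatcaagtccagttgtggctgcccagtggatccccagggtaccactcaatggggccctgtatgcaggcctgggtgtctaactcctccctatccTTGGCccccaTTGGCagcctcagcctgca
Lcat: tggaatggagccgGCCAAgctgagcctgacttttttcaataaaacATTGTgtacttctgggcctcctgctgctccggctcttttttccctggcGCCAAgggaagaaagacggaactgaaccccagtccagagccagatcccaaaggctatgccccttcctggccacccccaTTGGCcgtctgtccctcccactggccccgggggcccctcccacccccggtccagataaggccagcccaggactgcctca
Mfge8: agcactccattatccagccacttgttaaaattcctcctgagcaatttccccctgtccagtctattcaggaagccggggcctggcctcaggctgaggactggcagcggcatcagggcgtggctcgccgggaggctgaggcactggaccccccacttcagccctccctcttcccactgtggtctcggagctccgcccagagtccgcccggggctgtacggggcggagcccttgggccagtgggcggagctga
The Agt window is chr8:124569707-124569956 on the minus strand, with TTGGC starting 15 bases and the STAT letters starting 172 bases before the start site. The Hopx window is chr5:77115124-77115373 on the minus strand, with TTGGC 160 bases before the start site. The S100b window is chr10:76253586-76253835 on the plus strand, with TTGGC 29 and 19 bases before the start site and its reverse complement 203 bases before it. The Lcat window is chr8:105943403-105943652 on the minus strand, with TTGGC 79 bases before the start site, its reverse complement 237 and 157 bases before it, and the reverse complement of ACAAT 205 bases before it. The Mfge8 window, chr7:79149061-79149310 on the minus strand, held none of the 3 in these letters and had the highest GC content of the 5, 65.2%, against 60.8% for Lcat, 55.6% for Agt, 53.6% for S100b and 52.4% for Hopx. TTGGC was present in 16 of the 32 promoters of the astrocyte genes and in 41.5% of all 32851 promoters of the same length. ACAAT was present in 4 of 32 (12.5%) against 27.7%, and TTCNNNGAA in 4 of 32 (12.5%) against 7.02%. These shares describe letters in a window and were not tested.

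Each library held between 29244745 and 60751792 counts in genes, with a median of 32232112. The 31 genes together took between 0.511% and 1.09% of a library's counts. Taok2, a kinase gene inside the deleted segment, averaged 71.7 ± 5.21 counts scaled to a common library size (CPM) in deletion cerebellum and 148 ± 15.8 CPM in wild-type cerebellum, 82.1 ± 2.82 and 168 ± 13.5 CPM in deletion and wild-type striatum, and 77.6 ± 4.16 and 151 ± 7.28 CPM in deletion and wild-type cortex (SD, n = 8 each). Its groups did not overlap in any region. The cerebellar markers Pcp2 and Gabra6 were at least at 131 and 61.1 CPM in every cerebellar library, and Pcp2 was at most at 0.226 CPM elsewhere. The cerebellar library of deletion animal D809 stood apart, with a mean log2 CPM of 6.41 over the cerebellar neuron markers, against 7.81 in the next lowest. The striatal and cortical dissections were mixed. Drd1, which encodes a striatal dopamine receptor, lay between 5.03 and 236 CPM in striatal libraries, with a median of 51.2 CPM, and between 9.12 and 113 CPM in cortical libraries, with a median of 51.7 CPM. Tbr1, a transcription factor of cortical neurons, reached 53.4 CPM in striatum and 126 CPM in cortex. In 7 striatal libraries the striatal marker level lay less than 1 on the log2 scale above that of another region's markers. For comparisons of striatum with another region, counts without these libraries are given where calls changed. Cortical libraries were all kept. In cortex of D803, D804, D809, W805 and W816 the striatal neuron markers had a higher mean log2 CPM than the cortical neuron markers. In D803 these levels were 7.25 and 6.26. In such bulk tissue, fewer astrocytes and less RNA per astrocyte cannot be told apart.

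All 31 genes passed the filter on low counts in every region. Per kilobase of exon, Apoe, which carries lipids between cells, was the most abundant in all 6 groups, at 639 CPM per kb in wild-type cerebellum and 761 CPM per kb in wild-type cortex. S100b, which encodes a calcium-binding protein, came second in wild-type cerebellum at 403 CPM per kb, followed by Atp1b2, a subunit of the sodium pump, at 308 CPM per kb. In wild-type cortex Apoe was followed by Glul, which encodes glutamine synthetase, at 416 CPM per kb, and by Clu, which encodes the secreted chaperone clusterin, at 352 CPM per kb. Sox9, a transcription factor of glial fate, and Slc14a1, a urea transporter, were lowest in wild-type cerebellum at 5.60 and 8.66 CPM per kb. Mfge8 stood 22nd of 31 in wild-type cerebellum and 7th in wild-type cortex, and Agt stood 13th in wild-type cerebellum and 26th in wild-type cortex.

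Most of the astrocyte genes were more abundant in cerebellum than in cortex. In deletion mice 21 of 31 were higher and 4 lower in cerebellum, where a call is an adjusted p under 0.05 by edgeR's quasi-likelihood test with Benjamini-Hochberg adjustment over 18531 genes. Of all genes tested, 24.6% were called higher and 24.1% lower. In wild-type mice 20 were higher and 5 lower, with 25.4% and 24.9% of all genes. The median log2 difference of the 31 genes, cerebellum minus cortex, was 0.51 in deletion mice and 0.44 in wild-type mice, beside 0.04 and 0.05 over all genes. A log2 difference of 1 is a 2-fold difference, and 10 of the 31 genes were called at least 2-fold higher and 1 at least 2-fold lower in each genotype. The shares of all genes for these were 9.33% and 13.2% in deletion mice and 9.8% and 14.1% in wild-type mice. Without animal D809 edgeR called 21 of the 31 genes higher and 5 lower in deletion cerebellum than in cortex, beside 23.7% and 24.4% of all genes.

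Agt, which encodes angiotensinogen, the secreted precursor of the angiotensins, had the widest of these differences in wild-type mice. In deletion mice it ran from 63.5 to 193 CPM in cerebellum, with a median of 111 CPM, and from 5.15 to 70.1 CPM in cortex, with a median of 24.8 CPM. In wild-type mice the lowest, median and highest libraries were at 72.4, 120 and 163 CPM in cerebellum and at 4.14, 21.0 and 37.9 CPM in cortex. The wild-type groups did not overlap, whereas the highest deletion cortex library lay above the lowest deletion cerebellum library. The log2 difference was 2.04 ± 0.51 (SE) in deletion mice and 2.57 ± 0.52 in wild-type mice, with adjusted p of 0.000782 and 4.76e-05 by edgeR.

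Hopx, a small homeodomain protein known from neural progenitors, was the second. Its lowest, median and highest libraries were at 96.5, 150 and 220 CPM in deletion cerebellum and at 19.6, 32.9 and 55.3 CPM in deletion cortex. They were at 92.3, 155 and 200 CPM in wild-type cerebellum and at 16.3, 35.5 and 66.0 CPM in wild-type cortex. Cerebellum and cortex did not overlap in either genotype. The log2 difference was 2.11 ± 0.30 in deletion mice and 2.06 ± 0.30 in wild-type mice, with edgeR adjusted p of 8.72e-08 and 1.26e-07. Counts of Hopx share exon bases with the antisense gene Hopxos, and how the submitters counted strand is not given in the sources used here.

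S100b had 372, 633 and 817 CPM in the lowest, median and highest deletion cerebellum libraries, and 109, 169 and 236 CPM in deletion cortex. In wild-type mice these values were 371, 607 and 796 CPM in cerebellum and 130, 164 and 199 CPM in cortex. Every cerebellar library lay above every cortical one. The log2 difference was 1.93 ± 0.20 in deletion mice and 1.90 ± 0.20 in wild-type mice, with edgeR adjusted p of 2.89e-11 and 3.98e-11. The other cytoskeletal gene, Gfap, which encodes the intermediate filament most used to stain astrocytes, differed by 0.11 ± 0.34 in deletion mice and 0.17 ± 0.34 in wild-type mice and was not called in either (edgeR adjusted p of 0.821 and 0.702).

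**Figure D1:**
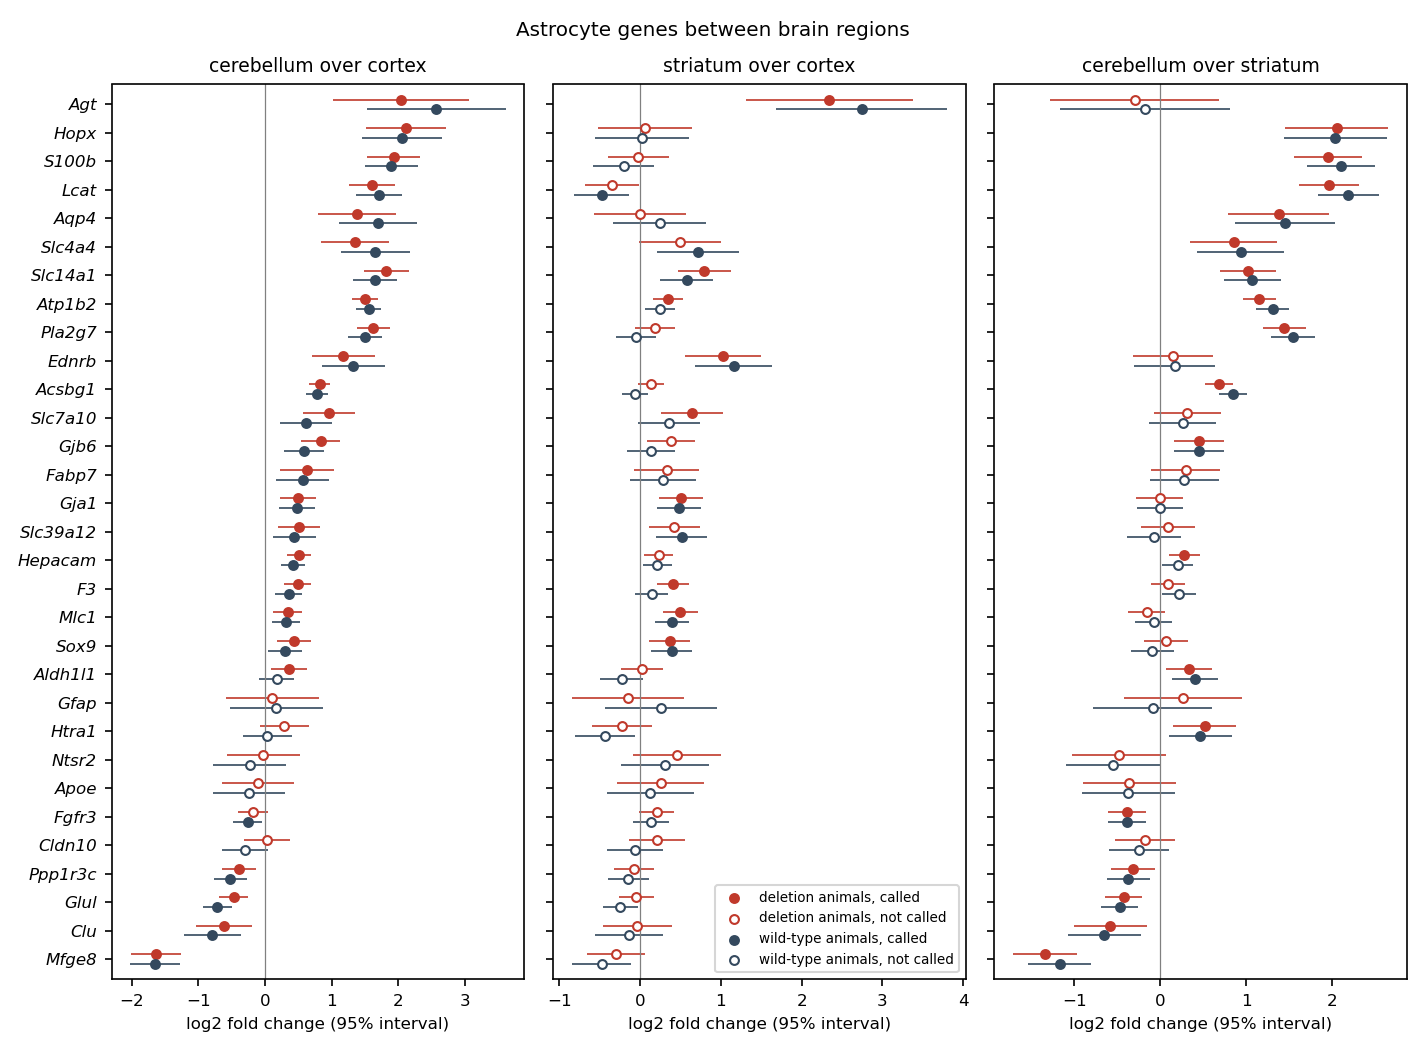
Log2 differences of the 31 astrocyte genes between regions with confidence intervals, in deletion and wild-type mice. The comparisons are cerebellum against cortex, striatum against cortex and cerebellum against striatum. Filled points passed the test at an adjusted p under 0.05. Agt, Hopx and S100b are farthest to the right and Mfge8 farthest to the left in the comparison of cerebellum with cortex, and the 2 genotypes lie close together.

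Of the 11 channels, transporters and junction proteins, 10 were higher in cerebellum than in cortex in both genotypes and none was lower. Slc14a1 had the largest difference in deletion mice and Aqp4 in wild-type mice. Aqp4, the water channel of astrocyte endfeet, differed by 1.38 ± 0.29 in deletion mice and 1.69 ± 0.29 in wild-type mice, and Slc4a4, a sodium bicarbonate cotransporter, by 1.35 ± 0.25 in deletion mice and 1.65 ± 0.26 in wild-type mice. Slc14a1 differed by 1.82 ± 0.17 and Atp1b2 by 1.5 ± 0.10 in deletion mice, and by 1.65 ± 0.16 and 1.55 ± 0.10 in wild-type mice. Atp1b2 had the smallest adjusted p of the 31 genes, 3.58e-17 in deletion mice and 8.81e-18 in wild-type mice by edgeR. The remaining 6 differed by less than 1 on the log2 scale. In wild-type mice these were Slc7a10, a transporter of small neutral amino acids, at 0.61, the gap junction connexins Gjb6 at 0.59 and Gja1 at 0.48, the zinc transporter Slc39a12 at 0.44, the adhesion protein Hepacam at 0.41, and its partner Mlc1, a membrane protein mutated in a human leukoencephalopathy, at 0.32. Cldn10, a claudin, differed by 0.03 ± 0.17 in deletion mice and -0.30 ± 0.17 in wild-type mice, with edgeR adjusted p of 0.901 and 0.144. With the animal as a block, Cldn10 was called lower in wild-type cerebellum (-0.32, edgeR adjusted p of 0.0281), as were 28.3% of all genes. Over all its alternatives the adjusted p of Cldn10 ran from 0.00495 to 0.739.

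The enzymes divided. Acsbg1, which activates long-chain fatty acids, was higher in cerebellum than in cortex by 0.82 ± 0.08 in deletion mice and 0.79 ± 0.08 in wild-type mice. Glul was lower in cerebellum, at a mean of 912 ± 245 CPM in deletion cerebellum against 1264 ± 127 CPM in deletion cortex, and 843 ± 142 CPM in wild-type cerebellum against 1382 ± 127 CPM in wild-type cortex (SD, n = 8 each). Its log2 difference was -0.47 ± 0.11 in deletion mice and -0.71 ± 0.11 in wild-type mice, with edgeR adjusted p of 0.000281 and 3.09e-07. Ppp1r3c, a subunit that directs a protein phosphatase to glycogen, was also lower in cerebellum, at -0.39 ± 0.13 in deletion mice and -0.52 ± 0.13 in wild-type mice. Aldh1l1, an enzyme of folate metabolism widely used as a pan-astrocyte marker, was called in deletion mice at 0.36 ± 0.13 and not in wild-type mice at 0.18 ± 0.13, and its genotype-by-region difference of 0.18 ± 0.18 was not called (edgeR adjusted p of 1).

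Among the receptors, Ednrb, the endothelin receptor, was higher in cerebellum by 1.18 ± 0.24 in deletion mice and 1.33 ± 0.24 in wild-type mice. F3, tissue factor, the membrane protein that starts blood coagulation, was higher by 0.49 ± 0.10 and 0.36 ± 0.10. Fgfr3, a receptor of fibroblast growth factors, differed by -0.18 ± 0.11 in deletion mice, which was not called, and by -0.26 ± 0.11 in wild-type mice, which was (edgeR adjusted p of 0.187 and 0.0461). Ntsr2, a neurotensin receptor, differed by -0.02 ± 0.27 and -0.23 ± 0.27 and was called in neither genotype.

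The secreted proteins held the genes at both ends. Beside Agt, the lipoprotein enzyme Lcat, which esterifies cholesterol, and Pla2g7, which breaks down platelet-activating factor, were higher in cerebellum. Lcat had 63.0, 85.2 and 102 CPM in the lowest, median and highest deletion cerebellum libraries and 19.0, 27.0 and 37.5 CPM in deletion cortex. In wild-type mice it had 64.6, 84.5 and 105 CPM in cerebellum and 20.1, 25.8 and 36.1 CPM in cortex, with no overlap between regions in either genotype. Its log2 difference was 1.61 ± 0.17 in deletion mice and 1.71 ± 0.17 in wild-type mice, and that of Pla2g7 was 1.63 ± 0.13 and 1.5 ± 0.13. Mfge8, which bridges dying cells to phagocytes, ran the other way. Its lowest, median and highest libraries were at 60.0, 88.3 and 119 CPM in deletion cerebellum and 180, 260 and 394 CPM in deletion cortex, and at 67.4, 91.6 and 140 CPM in wild-type cerebellum and 191, 270 and 453 CPM in wild-type cortex. These values of Mfge8 are given because it was the 1 member called at least 2-fold lower in cerebellum, a choice made after its values were seen. Every cerebellar library lay below every cortical library of the same genotype. Its log2 difference was -1.64 ± 0.18 in deletion mice and -1.65 ± 0.18 in wild-type mice, with edgeR adjusted p of 4.21e-10 and 3.28e-10. Clu was lower in cerebellum at -0.62 ± 0.21 and -0.79 ± 0.21. Apoe, at -0.10 ± 0.27 and -0.24 ± 0.27, and Htra1, a secreted serine protease, at 0.29 ± 0.18 and 0.03 ± 0.18, were called in neither genotype.

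All 3 genes of transcription and of progenitors were higher in cerebellum. Beside Hopx, Fabp7, a fatty acid binding protein of radial glia and Bergmann glia, differed by 0.63 ± 0.20 in deletion mice and 0.57 ± 0.20 in wild-type mice, and Sox9 by 0.43 ± 0.13 and 0.30 ± 0.12. Without a test, 11 of the 31 genes in deletion mice and 12 in wild-type mice had every cerebellar library above every cortical one, beside 7.78% and 9.96% of all genes. In the opposite direction 1 gene in deletion mice, Mfge8, and 2 in wild-type mice, Glul and Mfge8, did not overlap, beside 10% and 12.1% of all genes.

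**Figure D2:**
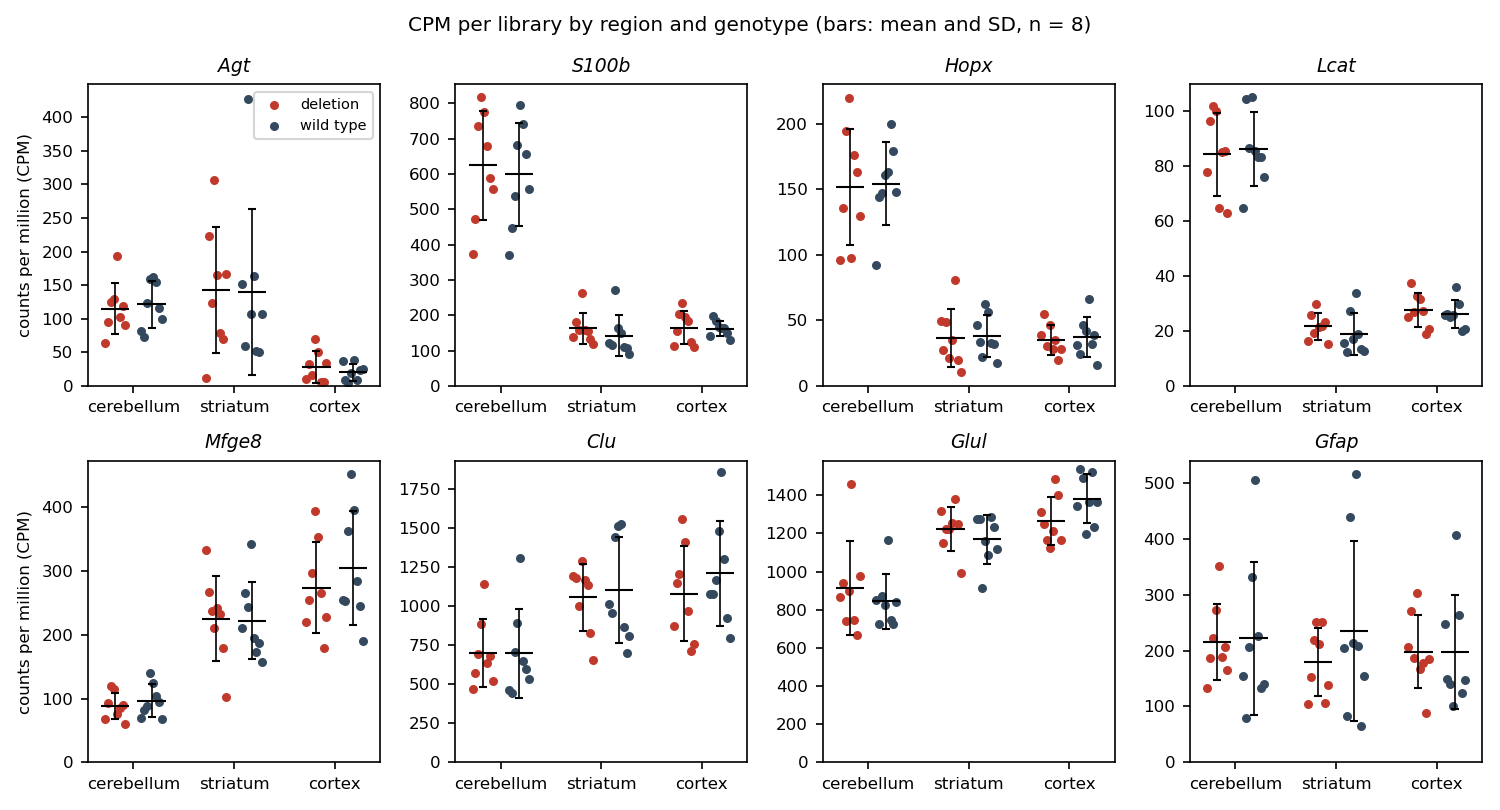
CPM of Agt, S100b, Hopx, Lcat, Mfge8, Clu, Glul and Gfap in each of the 48 libraries, by region and genotype, with the mean and SD of each group of 8. S100b, Hopx and Lcat stand apart in cerebellum, Agt is low in cortex, Mfge8 is low in cerebellum, and deletion and wild-type libraries overlap in every panel.

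Between striatum and cortex fewer of the genes differed. In deletion mice 9 of 31 were higher in striatum and none lower by edgeR, and in wild-type mice 8 were higher and 1 lower. The shares of all genes were 10.4% higher and 9.59% lower in deletion mice, and 11.2% and 9.9% in wild-type mice, so both directions were called at similar rates over all genes. The median log2 difference of the 31 genes, striatum minus cortex, was 0.23 in deletion mice and 0.14 in wild-type mice, beside 0.01 and 0.02 over all genes. DESeq2 called 2 genes lower in wild-type mice, Lcat and Mfge8, and the edgeR fit with the animal as a block called 3, Lcat, Mfge8 and Htra1, and called Lcat lower in deletion mice as well. That block also added Atp1b2 and Hepacam in wild-type mice and Gjb6, Hepacam, Slc39a12 and Slc4a4 in deletion mice to the genes called higher. The block fit called 16.55% of all genes higher and 15.39% lower in wild-type mice, and 13.97% and 12.24% in deletion mice. DESeq2 called 11.36% of all genes lower in wild-type mice.

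Agt again had the widest difference. It ran from 11 to 306 CPM in deletion striatum, with a median of 145 CPM, and from 51.1 to 427 CPM in wild-type striatum, with a median of 107 CPM, beside the cortical values given above. The wild-type groups did not overlap, and Agt was the 1 gene of 31 of which this was true between these regions (of all genes 1.41% lay wholly higher and 2.44% wholly lower in deletion striatum, and 2.3% and 1.27% in wild-type striatum). Its log2 difference was 2.34 ± 0.51 in deletion mice and 2.74 ± 0.52 in wild-type mice, with edgeR adjusted p of 0.000647 and 0.000123. Without the 7 striatal libraries of mixed dissection, an alternative chosen after the data were seen, it was 2.14 and 2.17 with adjusted p of 0.00198 and 0.00764. In the 4 females of each wild-type group alone it was 1.99 with an adjusted p of 0.111, and in the 4 males of each deletion group alone 2.32 with an adjusted p of 0.0814, both by edgeR. Over all alternatives its adjusted p was at most 0.0814 in deletion mice and 0.111 in wild-type mice.

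Called higher in striatum in both genotypes, beside Agt, were Ednrb at 1.03 ± 0.24 in deletion mice and 1.16 ± 0.24 in wild-type mice, Slc14a1 at 0.80 ± 0.16 and 0.58 ± 0.16, Mlc1 at 0.50 ± 0.11 and 0.40 ± 0.11, Gja1 at 0.50 ± 0.13 and 0.49 ± 0.13, and Sox9 at 0.37 ± 0.12 and 0.39 ± 0.12. Slc7a10, F3 and Atp1b2 were called in deletion mice alone, and Slc4a4 and Slc39a12 in wild-type mice alone. The genotype-by-region difference was called for none of the 31 genes by edgeR. Lcat was lower in wild-type striatum, where its lowest, median and highest libraries were at 12.2, 16.4 and 33.8 CPM, against 20.1, 25.8 and 36.1 CPM in wild-type cortex. Its log2 difference was -0.35 ± 0.17 in deletion mice and -0.47 ± 0.17 in wild-type mice, with edgeR adjusted p of 0.156 and 0.0382, and the wild-type call was lost when W805, W806, W808, W814, W815 or W816 was left out. Over its alternatives the adjusted p in wild-type mice ran from 0.000478 to 0.375.

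Marker lists of other tissue moved between these libraries. The 10 cortical neuron markers summed to between 187 and 956 CPM in deletion striatum and between 129 and 1450 CPM in wild-type striatum, against 1897 to 2768 CPM in deletion cortex and 1826 to 3086 CPM in wild-type cortex. The 12 striatal neuron markers summed to between 436 and 7423 CPM in deletion striatum and 335 and 4400 CPM in wild-type striatum, and to between 680 and 4048 CPM in deletion cortex and 284 and 2598 CPM in wild-type cortex, and none was at 0 in a whole group. The 7 mixed striatal libraries were 2 of deletion mice and 5 of wild-type mice, so that 6 deletion and 3 wild-type striatal libraries were left without them. The cortical libraries with high striatal markers were kept in that fit. EdgeR then called 9 genes higher and 1 lower in deletion striatum, beside 8.37% of all genes in each direction. It called 5 higher and 1 lower in wild-type striatum, beside 7.29% and 7.37%.

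Between cerebellum and striatum, 13 of 31 genes were higher in cerebellum and 5 lower in deletion mice, and 12 were higher and 5 lower in wild-type mice, by edgeR. All genes were called higher at 22.1% and lower at 23.6% in deletion mice, and at 24.0% and 25.9% in wild-type mice. The median log2 difference of the 31 genes, cerebellum minus striatum, was 0.27 in deletion mice and 0.20 in wild-type mice, beside 0.01 in each over all genes. Lcat, S100b and Hopx led, with 1.96 ± 0.17, 1.95 ± 0.20 and 2.05 ± 0.30 in deletion mice and 2.19 ± 0.17, 2.10 ± 0.20 and 2.04 ± 0.30 in wild-type mice. Their edgeR adjusted p in wild-type mice were 4e-14, 3.91e-12 and 1.84e-07. In striatum the lowest, median and highest libraries of S100b were at 117, 156 and 263 CPM in deletion mice and 90.7, 120 and 272 CPM in wild-type mice. Those of Hopx were at 10.5, 31.2 and 80.7 CPM in deletion mice and 17.5, 33.0 and 62.6 CPM in wild-type mice, and those of Lcat in deletion striatum at 15.1, 21.8 and 29.7 CPM. All lay below the lowest cerebellar library of the same genotype. Pla2g7, Aqp4, Atp1b2, Slc14a1, Slc4a4, Acsbg1, Htra1, Gjb6 and Aldh1l1 were also higher in cerebellum in both genotypes, and Mfge8, Clu, Glul, Fgfr3 and Ppp1r3c were lower in both. Hepacam was called higher in deletion mice and not in wild-type mice. Without the mixed striatal libraries, 5 of these calls were lost in wild-type mice and 1 in deletion mice by edgeR. Those lost in wild-type mice were of both directions. Of all genes that fit called 17.4% higher and 19.8% lower in wild-type mice, and 21.0% and 22.2% in deletion mice. Without animal D809 edgeR called 10 genes higher and 6 lower in deletion cerebellum than in striatum, beside 21.5% and 24.4% of all genes. Mfge8 had the largest of the negative values, -1.34 ± 0.18 in deletion mice and -1.17 ± 0.18 in wild-type mice.

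Agt did not differ by the test between cerebellum and striatum, at -0.30 ± 0.49 in deletion mice and -0.17 ± 0.49 in wild-type mice (edgeR adjusted p of 0.659 and 0.802), with an interval in wild-type mice from -1.16 to 0.82. Of the 10 genes called at least 2-fold higher in cerebellum than in cortex, 7 were also called at least 2-fold higher in cerebellum than in striatum in both genotypes, S100b, Hopx, Lcat, Pla2g7, Aqp4, Atp1b2 and Slc14a1. Both rules were met in both genotypes by 5.32% of all genes, and 8.21% of all genes in deletion mice and 8.3% in wild-type mice were called at least 2-fold higher in cerebellum than in striatum. Agt and Ednrb were instead called at least 2-fold higher in both cerebellum and striatum than in cortex, as were 1.52% of all genes in deletion mice and 1.47% in wild-type mice, and were not called between cerebellum and striatum. Of all genes, 4.86% were called at least 2-fold higher in striatum than in cortex in deletion mice and 5.37% in wild-type mice. Ednrb differed between cerebellum and striatum by 0.15 ± 0.23 in deletion mice and 0.17 ± 0.23 in wild-type mice. With the animal as a block, Apoe and Ntsr2 were called lower in cerebellum than in striatum in both genotypes (-0.40 and -0.52 in each), and F3 and Hepacam higher in wild-type mice (both 0.20). Of all genes that fit called 27.3% lower in deletion mice, and 29.1% lower and 28.5% higher in wild-type mice. In wild-type females alone the value of Apoe was 0.19.

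By the order of the wild-type mean CPM, 11 genes ran cerebellum, striatum, cortex from high to low, 6 ran cerebellum, cortex, striatum, 6 ran striatum, cerebellum, cortex, 5 ran cortex, striatum, cerebellum, and 3 ran striatum, cortex, cerebellum. The 5 with their highest mean in cortex were Cldn10, Glul, Ppp1r3c, Mfge8 and Clu. Neighbours in this order often did not differ by the test, as for Hopx and S100b between striatum and cortex, where edgeR gave -0.20 ± 0.19 for S100b and 0.03 ± 0.29 for Hopx in wild-type mice. Gfap, Cldn10, Ntsr2 and Apoe were called between no regions in either genotype in the fit without the block. The regional differences of deletion and wild-type mice, which rest on separate animals, had the same sign for 30 of 31 genes between cerebellum and cortex, 26 between striatum and cortex and 28 between cerebellum and striatum, and no gene was called in opposite directions. The widest gap between the genotypes was 0.52 for Agt between cerebellum and cortex, and the genotype-by-region test called none of the 31 genes and none of 18531 genes by edgeR, with none of the 31 under an unadjusted p of 0.05 either.

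Other astrocyte gene lists placed these values. Of 35 further astrocyte genes, 15 were higher and 8 lower in deletion cerebellum than in deletion cortex, and 16 were higher and 9 lower in wild-type cerebellum. Of all genes, 24.6% were called higher and 24.1% lower in deletion mice, and 25.4% and 24.9% in wild-type mice. These shares also stand beside the Bergmann glia and reactive lists below, for cerebellum against cortex. The 3 highest and 3 lowest in wild-type mice were Lgr6, Itih3 and Aldoc, at 1.64 ± 0.28, 1.60 ± 0.34 and 1.37 ± 0.16, and Cyp4f15, Slc1a2 and Gpc5, at -2.45 ± 0.19, -1.76 ± 0.20 and -1.54 ± 0.21. Slc1a2, the main glutamate transporter of forebrain astrocytes, averaged 739 ± 217 CPM in deletion cerebellum against 2230 ± 635 CPM in deletion cortex, and 664 ± 151 CPM in wild-type cerebellum against 2247 ± 329 CPM in wild-type cortex (SD, n = 8 each). Between striatum and cortex the highest was Itih3, an extracellular matrix protein gene, at 2.58 ± 0.35 in deletion mice and 2.55 ± 0.35 in wild-type mice, and the second was Slc6a11, a GABA transporter, at 1.53 ± 0.33 and 1.64 ± 0.34. All 7 Bergmann glia genes were higher in cerebellum than in cortex and than in striatum in both genotypes, with medians against cortex of 2.63 in deletion mice and 2.64 in wild-type mice. Bergmann glia are cells of the cerebellum, so the direction of these 7 genes was set by the choice of the list. Among them Gdf10, a growth factor gene, averaged 129 ± 50.1 CPM in deletion cerebellum against 6.56 ± 1.68 CPM in deletion cortex, and 144 ± 46.6 CPM in wild-type cerebellum against 6.93 ± 1.82 CPM in wild-type cortex. Of 32 reactive astrocyte genes tested, 12 were higher and 4 lower in cerebellum than in cortex in each genotype, among them Vim, which encodes the filament vimentin, at 2.15 ± 0.22 in deletion mice and 2.18 ± 0.22 in wild-type mice. Vessels, microglia and meninges express several genes of that list, so its level does not measure astrocytes alone.

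None of the 31 genes passed the test for a difference between deletion and wild type in any region. None was called between deletion and wild type in cerebellum, striatum or cortex by edgeR's quasi-likelihood test, and none by DESeq2. Over all genes 0.138%, 0.128% and 0.13% were called in these regions in either direction. At an unadjusted p under 0.05, 1 of 31 was found in cerebellum, 1 in striatum and none in cortex, beside 2.08%, 3.32% and 2.03% of all genes. DESeq2 gave 1, 2 and 0 of 31 at that threshold. The median log2 difference of the 31 genes, deletion minus wild type, was 0.00 in cerebellum, 0.08 in striatum and -0.06 in cortex, beside medians over all genes between -0.01 and 0.00. In cerebellum 16 of the 31 differences were positive, in striatum 22 and in cortex 12. No group of deletion libraries stood wholly above or below its wild-type group for any of the 31 genes, beside 0.024% of all genes wholly above and 0.09% wholly below in cerebellum, 0.0116% and 0.093% in striatum, and 0.0119% and 0.0948% in cortex.

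The intervals bound what could have been missed. The 95% interval of the log2 difference lay within 1 in either direction, a 2-fold change, for all 31 genes in cerebellum and for 29 of 31 in striatum and in cortex. It lay within 0.5 for 21, 20 and 19 genes. Agt had the widest, from -1.01 to 1.18 in striatum and from -0.76 to 1.69 in cortex. The others past 1 were Gfap in striatum, at -0.40 with an interval from -1.20 to 0.40, and Aqp4 in cortex, at 0.40 with an interval from -0.21 to 1.02.

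**Figure D3:**
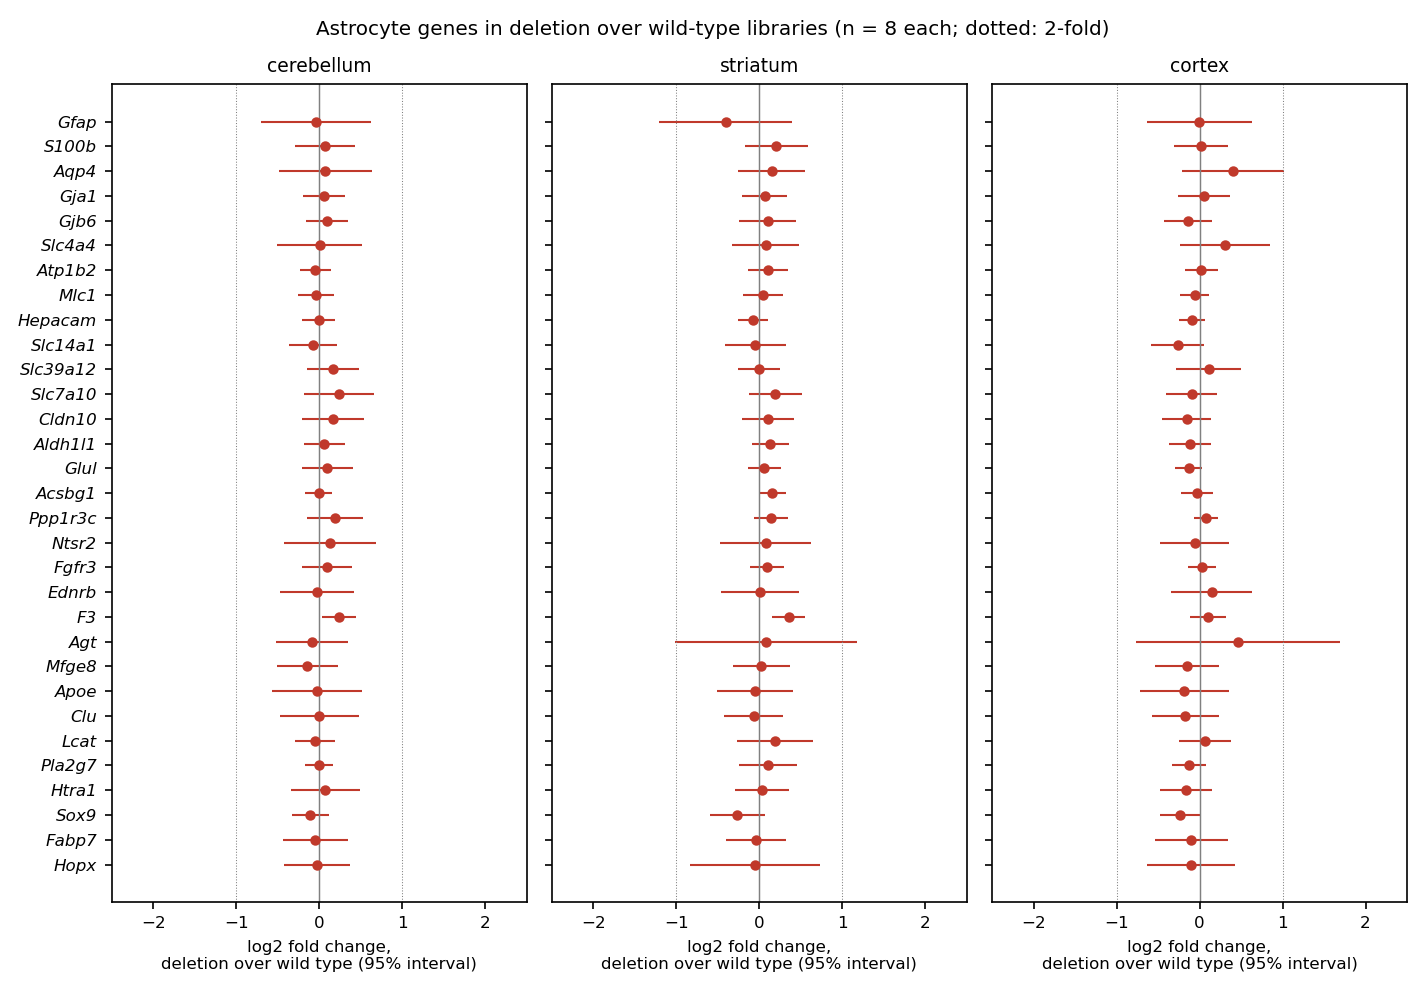
Log2 difference, deletion minus wild type, of the 31 astrocyte genes in cerebellum, striatum and cortex with 95% intervals, and dotted lines at a 2-fold change. All intervals but those of F3 in cerebellum and striatum reach 0, and the widest are those of Agt.

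F3 had the smallest p in both cerebellum and striatum. In striatum its lowest, median and highest libraries were at 37.4, 45.3 and 63.4 CPM in deletion mice and 30.0, 36.3 and 41.4 CPM in wild-type mice. The deletion libraries were all above the mean of the wild-type libraries, and 6 of the 8 were above every one of them. The log2 difference was 0.35 ± 0.09, with an unadjusted p of 0.00177 and an adjusted p of 0.622 by edgeR, and DESeq2 gave an adjusted p of 0.0969, the lowest of its alternatives, the highest being 1. In cerebellum the values were 42.3, 49.7 and 55.9 CPM in deletion mice and 32.2, 42.1 and 50.8 CPM in wild-type mice, again with all 8 deletion libraries above the wild-type mean, and a log2 difference of 0.24 ± 0.09 with an adjusted p of 1. By sex, the striatal difference was 0.39 in males and 0.31 in females, and the cerebellar one 0.39 in males and 0.09 in females. In cortex, F3 had 25.9, 36.4 and 38.8 CPM in deletion mice and 26.7, 33.0 and 40.1 CPM in wild-type mice, a difference of 0.11 ± 0.10.

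The other genes with the smallest p were, in cerebellum, Slc7a10 and Ppp1r3c. Slc7a10 had 70.3, 78.7 and 172 CPM in the lowest, median and highest deletion libraries and 54.1, 76.6 and 130 CPM in wild-type libraries, a log2 difference of 0.24 ± 0.20. Part of its exons overlaps the oppositely oriented gene Lrp3. Ppp1r3c had 34.5, 36.4 and 70.3 CPM in deletion cerebellum and 24.6, 34.9 and 50.2 CPM in wild-type cerebellum, a difference of 0.19 ± 0.16. The groups of both genes overlapped over most of their range.

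In striatum they were Acsbg1 and Sox9. Acsbg1 had 170, 204 and 222 CPM in deletion striatum and 161, 175 and 218 CPM in wild-type striatum, a log2 difference of 0.16 ± 0.08. Sox9 had 12.4, 22.0 and 28.7 CPM in deletion striatum and 19.6, 25.1 and 27.2 CPM in wild-type striatum, a difference of -0.27 ± 0.16. Their edgeR adjusted p were both 1.

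In cortex they were Sox9, Slc14a1 and Glul. Sox9 had 11.9, 15.9 and 19.9 CPM in deletion cortex and 16.1, 18.5 and 21.4 CPM in wild-type cortex, a log2 difference of -0.23 ± 0.12. Slc14a1 had 6.83, 8.99 and 12.2 CPM in deletion cortex and 8.32, 11.2 and 13.6 CPM in wild-type cortex, a difference of -0.26 ± 0.15. Glul had 1124, 1230 and 1485 CPM in deletion cortex and 1198, 1367 and 1535 CPM in wild-type cortex, a difference of -0.13 ± 0.08. All 3 had an edgeR adjusted p of 0.965, and their groups overlapped. The difference was positive in all 3 regions for 7 genes, Aqp4, F3, Fgfr3, Gja1, Ppp1r3c, S100b and Slc4a4, and negative in all 3 for 7, Apoe, Fabp7, Gfap, Hepacam, Hopx, Slc14a1 and Sox9, none of these being called.

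By role, no group of genes held a call. In striatum all 4 enzymes and all 4 receptors had positive differences and all 3 genes of transcription and of progenitors negative ones, with medians of 0.14, 0.08 and -0.05. None of the 35 further astrocyte genes, the reactive astrocyte genes or the Bergmann glia genes was called between deletion and wild type in any region, by edgeR or by DESeq2. At an unadjusted p under 0.05 edgeR found 1, 0 and 0 of the 35 further astrocyte genes in cerebellum, striatum and cortex. It found 0 of 31, 1 of 29 and 1 of 31 reactive astrocyte genes tested, and no Bergmann glia gene. DESeq2 found 1, 1 and 0 of the further astrocyte genes, 0, 2 and 1 of the reactive genes, and no Bergmann glia gene at that threshold.

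Marker lists of other cells differed between genotypes in striatum without a call, some with single libraries far from the rest. The 14 choroid plexus and ependymal markers summed to between 216 and 391.9 CPM in deletion striatum and between 310 and 7938 CPM in wild-type striatum. Of these 13 were tested, and all 13 had negative differences with a median of -1.22. Their mean log2 CPM was 4.43 in W813 and 6.13 in W816, against 1.95 to 2.69 in the other wild-type and 1.34 to 2.62 in the deletion striatal libraries. The cortical neuron markers had a median of -0.84 with 10 of 10 negative, and the striatal neuron markers a median of 0.47 with 12 of 12 positive. All 10 microglia markers were positive, with a median of 0.20 and summed levels of 402 to 653 CPM in deletion striatum against 316 to 490.5 CPM in wild-type striatum. The 5 blood genes were positive in all 3 regions, with medians of 0.95 in cerebellum, 1.15 in striatum and 0.76 in cortex. Deletion animal D804 had their highest mean log2 CPM in each region, 6.45, 5.63 and 5.99. All other libraries were at most at 4.44, 3.45 and 3.73 in cerebellum, striatum and cortex. In cerebellum 11 of 12 cerebellar neuron markers were negative, with a median of -0.27. With the dissection markers as covariates, or without the libraries with choroid plexus signal or with thalamic signal, edgeR called none of the 31 genes in the regions refitted.

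Males and females were compared as well, with the label's date inseparable from sex. None of the 31 genes was called in cerebellum, striatum or cortex by edgeR, where 0.042%, 0.134% and 0.0356% of all genes were called. In striatum 12 of the 31 had an unadjusted p under 0.05, beside 32.9% of all genes, and DESeq2 called 5 of them, Hepacam, Mfge8, Slc7a10 and Aldh1l1 higher and Aqp4 lower in males, beside 6.11% of all genes higher and 8.76% lower by DESeq2. The edgeR values for these 5 were 0.29 ± 0.09, 0.53 ± 0.16, 0.48 ± 0.15, 0.33 ± 0.11 and -0.67 ± 0.19, with adjusted p between 0.0856 and 0.0899. Without wild-type animal W813 edgeR called 11 of the 31 genes higher and 3 lower in male striatum, beside 14.4% of all genes higher and 13.5% lower. Without W805 it called 1 lower, beside 3.71% of all genes, and without deletion animal D809 it called 1 higher and 1 lower, beside 0.919% and 2.14%. In cerebellum 2 genes and in cortex 1 gene had an unadjusted p under 0.05 by edgeR, and DESeq2 called none. The sex-by-genotype test called none of the 31 genes and no other gene in any region by edgeR. At an unadjusted p under 0.05 it found 1 of the 31 in cortex, Gfap at 1.21 ± 0.52, named after its value was seen.

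The libraries differed in how counts depended on base composition and transcript length. For each library the log2 deviation from the regional mean was fitted on transcript GC content and log2 transcript length together, over 10762 genes other than the 31. Below, the slope is that on GC, with which the levels of most genes, the astrocyte genes among them, moved. It ran from -0.284 to 0.280 per 10 percentage points of GC over all libraries. The length slope ran from -0.324 per doubling in striatum of W807, where the GC slope was 0.280, to 0.421 in cerebellum of W805, where it was -0.274. The part of length in the correlations below was not tested. Mean slopes were -0.0187 ± 0.158 and 0.0187 ± 0.149 in deletion and wild-type cerebellum, -0.0283 ± 0.129 and 0.0283 ± 0.169 in deletion and wild-type striatum, and -0.0210 ± 0.187 and 0.0210 ± 0.111 in deletion and wild-type cortex (SD, n = 8 each), so the genotypes differed by less than their spread. In striatum males averaged 0.0968 and females -0.0968. Of 93 correlations between a gene's log2 level and the slope, 31 in each region over 16 libraries, 17 positive and 5 negative passed an adjusted permutation p under 0.05 in cerebellum by both Pearson's r and Spearman's rho, 13 and 5 in striatum, and 10 and 6 in cortex. The smallest r of those that passed by Pearson's r was 0.569 in size in cerebellum, 0.537 in striatum and 0.559 in cortex. An r at least this large in either direction was found for 74.2%, 61.3% and 58.1% of the 31 genes in cerebellum, striatum and cortex, and for 64.9%, 62.9% and 71.4% of the 10762 other genes, to which the slope itself was fitted.

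Apoe followed the slope most closely among the genes positive in all 3 regions, with Pearson's r of 0.904, 0.902 and 0.961 and Spearman's rho of 0.865, 0.918 and 0.944 in cerebellum, striatum and cortex. Without the 2 libraries of most extreme slope r was 0.813, 0.859 and 0.948. Within males r was 0.913, 0.894 and 0.989, and within females 0.889, 0.824 and 0.951. Aqp4 ran opposite, with r of -0.959, -0.871 and -0.901 and rho of -0.932, -0.891 and -0.897, and with r of -0.919, -0.877 and -0.920 without the 2 most extreme libraries. Within males its r was -0.974, -0.747 and -0.845, and within females -0.953, -0.781 and -0.952. The permutation p of these values lay between 1e-05, the smallest that 100000 permutations can give, and 7e-05, with adjusted p of 0.000362 or less. The 10 genes positive in all 3 regions were Aldh1l1, Apoe, Cldn10, Clu, Htra1, Mfge8, Mlc1, Ntsr2, S100b and Slc7a10, with transcript GC between 48.3% and 59.5% and a median of 55.0%. The 4 negative in all 3 were Aqp4, Ednrb, Gja1 and Slc4a4, with GC between 41.4% and 45.9%. Exon lengths were 4266 to 10815 bases for these 4 and 1484 to 4694 bases for the 10 positive genes.

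**Figure D4:**
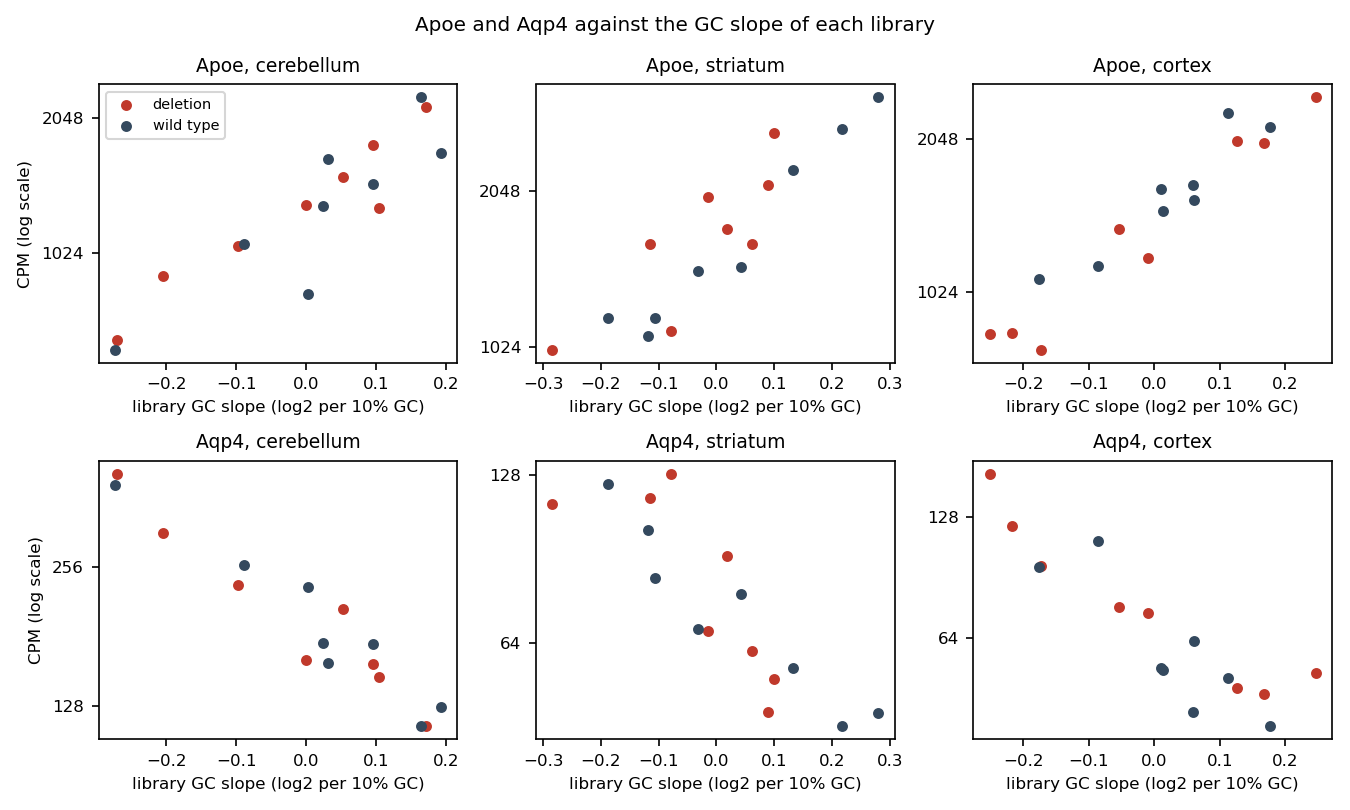
Log2 CPM of Apoe and of Aqp4 in each library against the library's GC slope, in cerebellum, striatum and cortex, with deletion and wild-type libraries marked. Apoe is higher and Aqp4 lower in libraries of higher slope in each region, and both genotypes lie along the same range.

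With the slope as a covariate, an alternative chosen after the data were seen, the median standard error of the 31 deletion differences fell to 0.0983 in cerebellum, against 0.159 without it, to 0.117 against 0.162 in striatum, and to 0.0947 against 0.148 in cortex. None of the 31 genes was called between deletion and wild type in any region with it, and at an unadjusted p under 0.05 edgeR found 1, 9 and 2 of the 31 genes in cerebellum, striatum and cortex, beside 10.8%, 15.3% and 4.75% of all genes in the same fits. F3 in striatum was at 0.34 with an adjusted p of 0.242. Between striatum and cortex the same covariate raised the deletion count to 15 higher, beside 18% of all genes. The genes added were Apoe, Gjb6, Hepacam, Ntsr2, Slc39a12 and Slc4a4. In wild-type mice it gained 8 calls and raised the count of lower genes to 5, adding Aldh1l1, Htra1, Mfge8 and S100b. The other gained calls were of genes higher in wild-type striatum. Of all genes in wild-type mice, 20.7% were called higher and 21.1% lower. Between cerebellum and striatum the covariate gave 8 lower genes in each genotype, beside 30.5% of all genes in deletion mice and 31.5% in wild-type mice.

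The levels of Agt and Gfap moved with dissection markers. Across 30 correlations of Agt, Gfap and Hopx with 5 marker lists in striatum and cortex, the log2 level of Agt in cortex had r of -0.732 and rho of -0.706 with the mean log2 level of the cortical neuron markers over 16 libraries (permutation p of 0.00163 and 0.00281, adjusted p of 0.0217 and 0.0421). It was -0.695 without the 2 most extreme libraries, -0.763 in males and -0.733 in females. Gfap in cortex had r of 0.727 and rho of 0.738 with the hippocampal markers (permutation p of 0.00129 and 0.00158, adjusted p of 0.0217 and 0.0421), 0.554 without the 2 most extreme libraries, 0.598 in males and 0.851 in females. With the choroid plexus and ependymal markers it had r of 0.696 and rho of 0.629 (adjusted permutation p of 0.0217 and 0.0667). In striatum Agt had r of -0.581 with the striatal neuron markers and rho of -0.521 (permutation p of 0.0163 and 0.0409), which did not pass the adjustment (adjusted p of 0.0977 and 0.136). Its r was -0.386 without the 2 most extreme libraries, -0.803 in males and -0.198 in females. The deletion library D801 had the lowest striatal Agt, 11 CPM, and wild-type W807 the highest, 427 CPM. Wild-type animal W813 gave the highest Gfap level of all libraries in each region, 505 CPM in cerebellum, 516 CPM in striatum and 407 CPM in cortex. These Gfap values were chosen after they were seen.

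**Figure D5:**
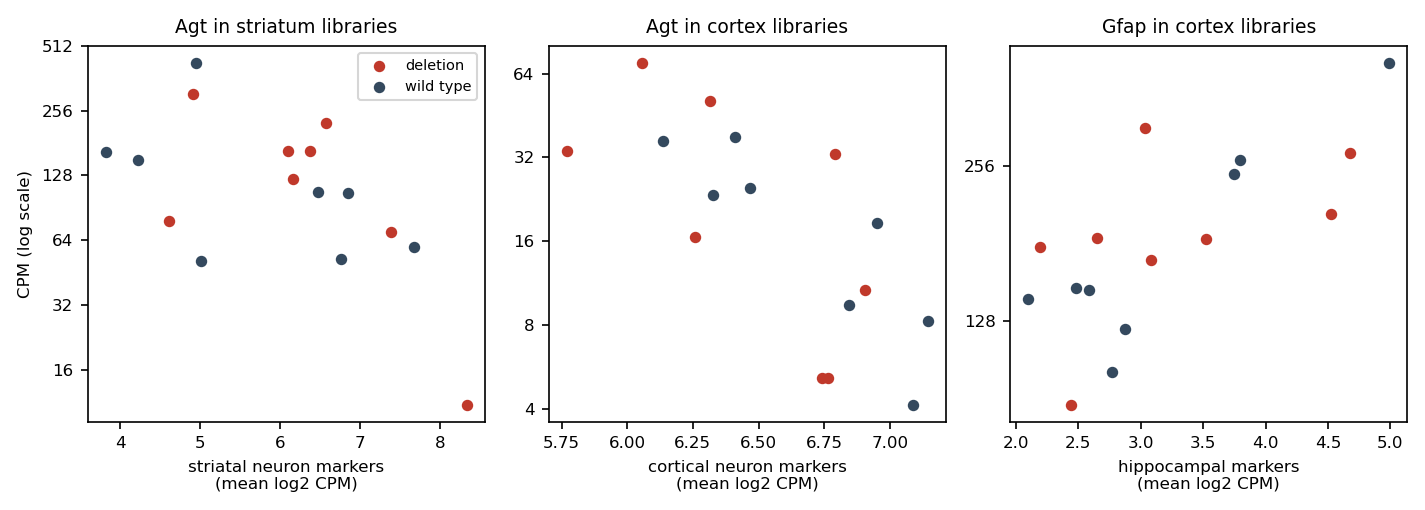
Log2 CPM of Agt in striatum against the striatal neuron markers, of Agt in cortex against the cortical neuron markers, and of Gfap in cortex against the hippocampal markers, 1 point per library and with genotypes marked. Agt falls in both left panels as the region's own markers increase, and Gfap increases with the hippocampal markers. The correlation of Agt in striatum did not pass the adjustment.

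The spread between animals differed among the genes. The coefficient of variation of CPM over 8 libraries had medians of 25.8% and 20.3% over the 31 genes in deletion and wild-type cerebellum, 22.6% and 25.4% in deletion and wild-type striatum, and 24.0% and 18.1% in deletion and wild-type cortex. It was lowest for Atp1b2 in deletion cerebellum, 6.47%, and highest for Agt in wild-type striatum, 88.6%. The libraries of 1 animal tended to deviate together, though not in every animal. The correlation over genes of the deviations from group means had a median of 0.535 for cerebellum and cortex of the same animal, 0.436 for striatum and cortex and 0.264 for cerebellum and striatum, and between -0.0737 and -0.0221 for libraries of other animals. The lowest values within 1 animal were -0.230, 0.0370 and -0.345 in the same order. It was over 0.1 in 14, 15 and 10 of 16 animals.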

How the data were processed

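The deposited table held whole-number counts of reads per gene for 48 libraries, and the counts were used as deposited by the authors. Libraries were made with a stranded TruSeq mRNA kit and sequenced on an Illumina instrument, per the labels. The submitters' processing notes name STAR 2.4.2a, SAMtools, Picard and FastQC 0.10.1, with the builds GRCm38 and mm8. Which program counted the reads, with which strand setting and annotation, was not given in the sources used here. In all, the table had 47161 features, of which 92 were spike-ins (0.0614% to 1.09% of counts), which were left out. Symbols, positions and exon lengths came from GENCODE vM21 on GRCm38, which matched 46574 of 47069 identifiers, and the 495 unmatched held 0.0580% of counts.

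Counts were scaled by edgeR 4.0.16 (R 4.3.3, limma 3.58.1) with TMM factors and its default filter on low counts. Deletion and wild type were compared within each region with sex as a covariate, and regions in 1 fit of all 48 libraries with 6 groups and sex. Quasi-likelihood tests were adjusted over all genes by the Benjamini-Hochberg method, and DESeq2 1.42.0 was an alternative. CPM values were computed from the deposited counts. Per-kilobase values divide CPM by exon length. Correlations used 100000 permutations. Scripts were tested on simulated data.

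Libraries of the same animal, identified by the labels, were mostly correlated, with medians of 0.264 to 0.535 for deviations from group means, so the animal was a block in an alternative fit. That libraries came from separate animals is taken from the labels.

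The genes and lists were chosen with earlier results of these data known. Low, median and high libraries are given for genes called between genotypes, for genes called at least 4-fold different between wild-type regions, at most 12 in all, and for the 3 genes of smallest p in each genotype comparison. Of the other lists, the 3 most changed genes of each direction in a wild-type regional comparison could be named.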

Additional observations from a re-analysis of the deposited data

Results flagged for a closer look

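In each group of 8 libraries the highest and the lowest library of every astrocyte gene were compared with the other 7 by Dixon's ratio, and 16 of 186 groups held a library farther from the others than its 95% critical value. For independent groups of normally distributed values that criterion flags about 1 in 20. The groups here share libraries, so 1 in 20 does not measure chance for them.

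Of these 16, 6 came from the deletion animal D809. In cerebellum it was highest for Hepacam at 174 CPM (other deletion libraries 112 to 133 CPM), for Cldn10 at 61.1 CPM (21.7 to 33.9 CPM), for Ppp1r3c at 70.3 CPM (34.5 to 40.8 CPM) and for Fgfr3 at 166 CPM (78.0 to 109 CPM), and lowest for Ednrb at 26.8 CPM (57.5 to 97.9 CPM). In cortex it was lowest for F3 at 25.9 CPM (33.2 to 38.8 CPM). Its cerebellar library also had the lowest mean log2 CPM of the cerebellar neuron markers among all cerebellar libraries, 6.41, and their part in these values was not tested.

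Animal D801, also of the deletion group, was lowest in striatum for Atp1b2 at 383 CPM (534 to 640 CPM) and for Agt at 11 CPM (70.0 to 306 CPM), and lowest in cerebellum for Pla2g7 at 353 CPM (441 to 530 CPM). Its striatal library had the highest mean log2 CPM of the striatal neuron markers among all striatal libraries, 8.33, and their part in these values was not tested. D812 was lowest in deletion striatum for Htra1 at 78.5 CPM (129 to 190 CPM).

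Among wild-type libraries, W805 was highest in cortex for Atp1b2 at 543 CPM (363 to 438 CPM) and lowest in cerebellum for Acsbg1 at 272 CPM (315 to 353 CPM) and for Hopx at 92.3 CPM (144 to 200 CPM). W813 was highest in cerebellum for Glul at 1164 CPM (724 to 874 CPM) and lowest in striatum for Sox9 at 19.6 CPM (23.7 to 27.2 CPM). W816 was lowest in cortex for Mlc1 at 148 CPM (173 to 198 CPM).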

How the results depend on the processing

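No called result changed its direction under the alternatives run. The counts of 0 astrocyte genes between deletion and wild type, by genotype and region, and by sex and genotype held under each alternative run. Leaving out 1 animal at a time was not run for sex by genotype, and gave 0 to 0 for the other 2 kinds and for males against females in cerebellum and cortex. It gave 20 to 21 higher and 4 to 5 lower between cerebellum and cortex in deletion mice, 18 to 20 and 4 to 5 in wild-type mice, 10 to 13 and 3 to 6 between cerebellum and striatum in deletion mice, 10 to 14 and 4 to 5 in wild-type mice, 8 to 11 and 0 to 0 between striatum and cortex in deletion mice, 5 to 9 and 0 to 3 in wild-type mice, and 0 to 11 and 0 to 3 for males against females in striatum. The count of 5 higher between wild-type striatum and cortex came without W816, the counts of 2, 3 and 2 lower without D801, D809 and D812, and 0 lower without W805, W808, W814, W815 or W816. The count of 3 lower between deletion cerebellum and striatum came without D801, D802 or D810.

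For males against females in striatum DESeq2 called 4 higher and 1 lower, beside 6.11% and 8.76% of all genes. The fit without the libraries of high choroid plexus signal called 1 lower, beside 3.80%. In males alone 13 genes were higher in wild-type cerebellum than in cortex, beside 3685 of all 18573 genes tested. In deletion striatum against cortex 3 were higher, beside 582. In wild-type striatum against cortex 5 were higher and 0 lower, beside 1284 and 1309. Lower in wild-type cerebellum than in striatum were 9, beside 3519. In females alone 1 and 2 were lower in deletion and wild-type cerebellum than in cortex, beside 3334 and 3283 of all 18623 genes tested. In deletion striatum against cortex 4 were higher, beside 569. In wild-type striatum against cortex 0 were higher and 0 lower, beside 154 and 40. Lower in cerebellum than in striatum was 1 in each genotype, beside 3120 in deletion and 4029 in wild-type females. These fits hold 4 animals a group. For genes lower in wild-type striatum than in cortex, DESeq2's size factors in edgeR and DESeq2 each gave 2, no filter on low counts gave 0, and the GC slope as a covariate gave 5, which also gave 15 higher in deletion striatum and 8 lower in cerebellum than in striatum in each genotype. In wild-type striatum against cortex that covariate gained 8 calls, of higher genes as well as lower ones. With mixed striatal libraries left out, 1 was lower in deletion striatum and 5 were higher in wild-type striatum than in cortex. In wild-type cerebellum 3 were then lower than in striatum, beside 19.8% of all genes. Between these 2 regions 5 calls of both directions were lost in wild-type mice, and 1 call in deletion mice. The cause of these changes was not tested. With the animal as a replicate block, 1 was lower in deletion and 3 in wild-type striatum than in cortex, beside 12.2% and 15.4% of all genes. The block gained 16 gene calls, each named beside its result above, lost 0, and changed no other call. The GC slope and the mixed-library settings were chosen after the data were seen. Size factors moved the median of all genes by less than 0.1 on the log2 scale. What could be detected is bounded by the intervals given in the report, which are widest for Agt.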
